A study of Mus musculus with 3 samples.

Results

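The 38 genes described here mark blood vessel endothelium or encode the factors that act on it, and all 38 were found by symbol among 19381 genes measured by bulk RNA sequencing of mouse incisor. They were sorted by role into 30 genes of endothelial identity and receptors, 3 factors that endothelium itself makes (Apln, Angpt2 and Pdgfb) and 5 ligands that mostly come from the surrounding stroma (Vegfa, Vegfb, Vegfc, Pgf and Angpt1). The tissue was the proximal end of the incisor, labelled incisor mesenchyme, from mice of genotype Gli1-CreER;Arid1afl/fl;Arid1bfl/fl, called DKO. In these mice tamoxifen (1.5 mg for every 10 g that the mouse weighed, injected) activates a Cre recombinase made under the Gli1 promoter, which then acts on floxed alleles of Arid1a and Arid1b. These genes encode members of the BAF complex, which remodels chromatin. Tissue was taken 4 days after induction from mice 1 month old. The labels give 3 DKO libraries, DKO 1, DKO 2 and DKO 3, and no other group, so no genotype was compared and every difference below is between libraries that share a genotype and a treatment. The labels do not say whether the libraries came from separate animals, and their spread may be technical.

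Endothelial cells line all blood vessels and are defined by adhesion molecules such as PECAM1, by ETS-family transcription factors, and by receptor tyrosine kinases that read signals from neighbouring cells. VEGF ligands acting on KDR drive vessel growth, while FLT1 holds VEGF away from KDR. ANGPT1 from mural and stromal cells activates the receptor TEK to stabilise vessels, and ANGPT2 from endothelium can oppose it. The Gli1 promoter is known for its activity in mesenchymal cells around the neurovascular bundle of the incisor.

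Endothelial genes were measurable in every DKO library, at low to moderate levels, and most of them were highest in DKO 3. Of the 30 identity and receptor genes, 24 had a mean of at least 10 in the deposited normalized signal, the limit used below for statements on spread. The median member stood at 28.3, and means ran from 0.833 for the lymphatic factor Prox1 to 138.6 for the receptor phosphatase Ptprb. Of the 24 genes, 19 were highest in DKO 3, 3 in DKO 1 (Flt1, Podxl and Erg) and 2 in DKO 2 (Adgrl4 and Fli1). Over all 10388 genes with a mean of at least 10, 34.6% were highest in DKO 3, 31.2% in DKO 1 and 34.2% in DKO 2. With no limit on level the count was 22 of 30, against 30.4% of all listed genes. The summed signal of the 30 genes was 1171 in DKO 1, 1149 in DKO 2 and 1413 in DKO 3. DKO 1 and DKO 2 thus lay close to each other and DKO 3 above both.

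The size of the shift in DKO 3 was modest and differed between genes. Relative to the mean of the other libraries (value + 1), the median of the 24 genes in DKO 3 was 1.20-fold, against 0.897-fold in DKO 1 and 0.863-fold in DKO 2. On the log2(value + 1) scale, the median deviation of the 24 genes from their own means was -0.10, -0.14 and 0.18 in the 3 libraries, a range of 0.32, while the median over all 10388 genes stayed between -0.01 and 0.01. Without DKO 3 this range was 0.03. In DKO 3, 8 of the 24 genes (Kdr, Flt4, Tie1, Eng, Emcn, Plvap, Vwf and Mmrn2) lay more than 25% above the mean of the others, against 3.96% of all genes, and 0 lay more than 20% below it, against 4.69% of all genes. In DKO 2, 4 of the 24 (Flt1, Esam, Podxl and Plvap) lay more than 20% below, against 4.2% of all genes. In DKO 1, 1 of the 24, Vwf, did so, against 5.52% of all genes. The coefficient of variation of the 24 genes had a median of 13.7%, whereas that of all 10388 genes was 7.20%. In bulk tissue, more endothelial cells and more RNA per endothelial cell cannot be told apart.

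**Figure D1:**
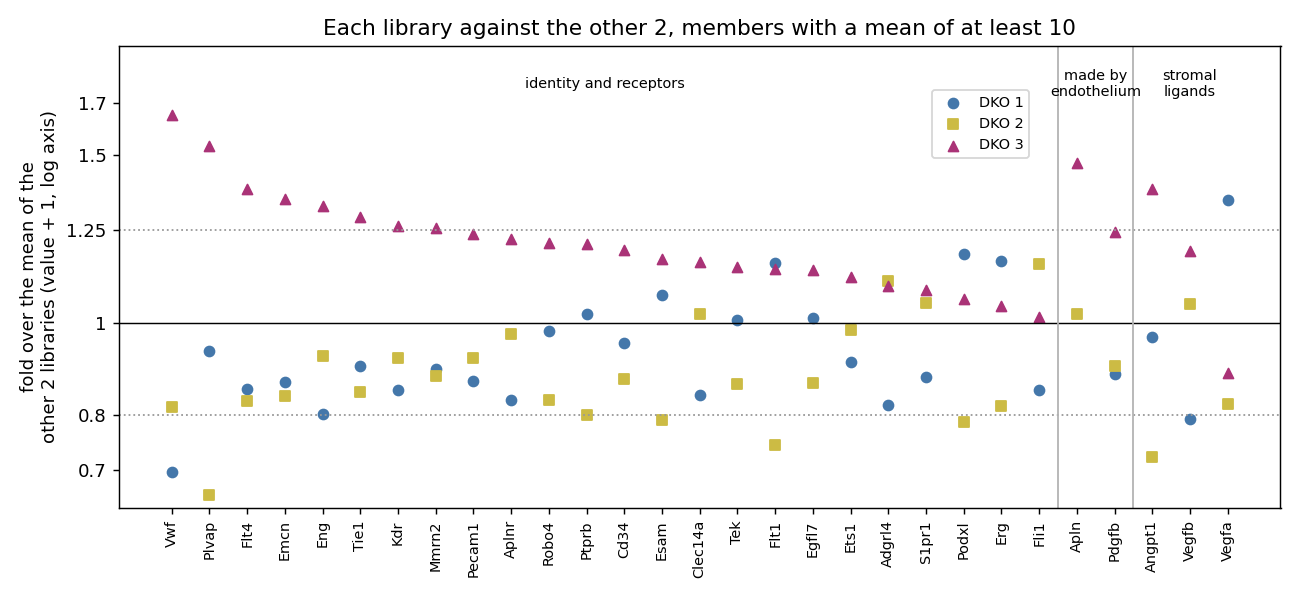
Fold of each library over the mean of the other 2 (value + 1, log axis) for the 29 members with a mean of at least 10, grouped by class and ordered by DKO 3. Triangles for DKO 3 lie above 1 for every member but Vegfa, dotted lines mark 25% above and 20% below, and Vwf and Plvap stand highest.

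Sampling of reads could be judged for nearly all of these values. Of 114 member values, 112 lay within 0.1 of a whole multiple of the smallest value in their library, against 81.4% to 82.7% of all values, and if that smallest value is 1 read the libraries hold 33863066, 34900647 and 41477624 reads. The largest total thus belongs to DKO 3, and its part in the results was not tested. Exact 95% Poisson intervals on those multiples cover counting error only. DKO 3 lay above both other libraries with intervals apart for 13 of the 24 identity and receptor genes, against 11.6% of all genes. DKO 2 lay below both with intervals apart for 6 of the 24, against 6.57% of all genes.

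Among the VEGF receptors, Kdr and Flt4 were highest in DKO 3 and Flt1 was lowest in DKO 2. Kdr (chromosome 5, 75932827 to 75978458, mm10), the main signalling receptor for VEGFA, stood at 66.3, 70.1 and 86.3 in DKO 1, 2 and 3 (74.2 ± 10.6, SD, n = 3). Its DKO 3 value lay above both others with counting intervals apart, 1.26-fold over their mean. Flt1 (chromosome 5, 147561604 to 147726011), the decoy-like receptor, was at 56.4, 41.5 and 55.9 (51.2 ± 8.46), so DKO 1 and DKO 3 were alike and DKO 2 was 0.744-fold of their mean. Flt4 (chromosome 11, 49609263 to 49652739), the receptor for VEGFC and a gene of lymphatic and growing blood vessels, was at 13.4, 13.1 and 18.7 (15.0 ± 3.14). It followed Kdr in having DKO 3 alone apart. The ratio of Kdr to Flt1 was therefore smallest in DKO 1.

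Per kilobase of exon, Kdr was the highest of the 3 VEGF receptors in every library. This scale allows for length when genes are compared with each other. It does so only roughly, as it counts all annotated exons of a gene, whichever transcripts were expressed. Kdr stood at 8.22 ± 1.18, Flt1 at 3.79 ± 0.626 and Flt4 at 1.83 ± 0.382 per kilobase (SD, n = 3). The log2 difference of Kdr from Flt1 (per-kilobase value + 1) was 0.69, 1.10 and 1.04 in the 3 libraries, and from Flt4 1.67, 1.76 and 1.69. The difference from Flt4 varied little, with an SD of 0.05 around a mean of 1.71. For 10 pairs set against each other in this way, the test was an exact permutation of signs over libraries (two-sided), which cannot go below p = 0.25 with 3 libraries. Of the 10 pairs, 8 had the same direction in 3 of 3 libraries and p = 0.25 (permutation, 0.312 after Benjamini-Hochberg adjustment over the 10), and none could pass a threshold of 0.05.

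The angiopoietin receptor group was lowest in DKO 2 and highest in DKO 3 for each of its 3 genes. Tek (chromosome 4, 94739289 to 94874976), the receptor that ANGPT1 activates, was at 29.4, 26.3 and 32.03 (29.2 ± 2.86). Tie1 (chromosome 4, 118471191 to 118490061), its partner without a known high-affinity ligand of the angiopoietin type, was at 24.3, 23.2 and 30.96 (26.1 ± 4.20). Ptprb (chromosome 10, 116275523 to 116389535), the phosphatase VE-PTP that damps TEK signalling, was at 140.5, 118.7 and 156.7 (138.6 ± 19.1), the highest member mean before division by length. For Tie1 and Ptprb the DKO 3 interval was apart from both others, and for Tek it was not. Tie1 was lower than Tek per kilobase in every library, by a mean log2 difference of -0.20 ± 0.10.

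The remaining 4 receptors, also among those 19, were all highest in DKO 3 by unequal amounts, against 34.6% of all genes. Eng (chromosome 2, 32646595 to 32682669), the TGF-beta co-receptor endoglin, which mesenchymal stromal cells and macrophages also make, was at 89.8, 99.1 and 125.3 (104.7 ± 18.4), 1.32-fold in DKO 3. S1pr1 (chromosome 3, 115710433 to 115715072), a sphingosine 1-phosphate receptor that seals endothelial junctions, was at 80.0, 90.3 and 92.2 (87.5 ± 6.59). DKO 2 and DKO 3 did not separate for S1pr1 and DKO 1 was lower. Per kilobase, S1pr1 (28.7 ± 2.16) and Eng (25.9 ± 4.55) were the highest of all 38 members, at percentiles 91.8 and 90.4 of 14989 protein-coding genes. Aplnr (chromosome 2, 85136225 to 85139923), the apelin receptor, was at 23.7, 26.6 and 30.96 (27.1 ± 3.66). Robo4 (chromosome 9, 37401897 to 37415115), an endothelial guidance receptor, was at 14.4, 12.8 and 16.7 (14.6 ± 1.98), and there the lowest library was DKO 2.

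Of the 8 surface and junction genes above the level limit, 6 were highest in DKO 3, against 34.6% of all genes. Pecam1 (chromosome 11, 106654217 to 106750628), the standard endothelial adhesion marker, which platelets and leukocytes also carry, was at 66.6, 69.2 and 84.4 (73.4 ± 9.61). Plvap (chromosome 8, 71497765 to 71511752), which forms the diaphragms of fenestrated capillaries, was at 34.1, 26.4 and 46.9 (35.8 ± 10.3). Plvap thus differed between DKO 2 and DKO 3 by more than any other junction gene, with all 3 counting intervals apart. Emcn (chromosome 3, 137341067 to 137432185), a sialomucin of capillary and venous endothelium, was at 24.7, 24.1 and 33.2 (27.3 ± 5.12). Cd34 (chromosome 1, 194938819 to 194961279), also made by stromal progenitors, was at 59.1, 55.5 and 68.5 (61.0 ± 6.70). Clec14a (chromosome 12, 58264720 to 58269290), a lectin-like receptor, was at 46.1, 52.8 and 57.4 (52.1 ± 5.69), and Mmrn2, the matrix protein that binds it, at 24.96, 24.67 and 31.45 (27.0 ± 3.83). These genes share their highest library, DKO 3, while the lower libraries change places between them.

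Podxl and Adgrl4 were not highest in DKO 3, and Esam was so by a small margin. Podxl (chromosome 6, 31519488 to 31563981), an anti-adhesive sialomucin that non-endothelial cells also make, was at 81.5, 61.8 and 76.0 (73.1 ± 10.16). Esam (chromosome 9, 37528078 to 37538319), a tight junction protein, was at 20.0, 16.1 and 21.2 (19.1 ± 2.68). In both, DKO 1 lay beside DKO 3 and DKO 2 was lowest, as also seen for Flt1. DKO 1 was the highest library for Podxl and Flt1, and DKO 3 for Esam. Adgrl4 (chromosome 3, 151437887 to 151545086), an adhesion receptor of growing vessels, was at 35.5, 43.7 and 43.3 (40.8 ± 4.62), so DKO 1 alone was low. Ecscr (chromosome 18), an endothelial chemotaxis regulator, was below the level limit at 5.13, 5.88 and 5.40.

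Vwf showed the largest spread of all members with a mean of at least 10. Vwf (chromosome 6, 125546774 to 125686679), the clotting factor stored in endothelium and platelets, was at 60.5, 67.9 and 106.6 (78.3 ± 24.7), 1.65-fold in DKO 3 over the mean of the others, with a coefficient of variation of 31.6%. The platelet genes Pf4 and Gp1bb stood at 15.4, 21.5 and 19.9 and at 12.6, 13.0 and 12.6, and Itga2b, far below the level limit, at 1.22, 1.07 and 0.978. None of these was highest in DKO 3, though Pf4 was higher there than in DKO 1. Only 4 of 8 platelet genes looked for were found, of which 2 passed the limit. The part of platelets in the Vwf values was not tested. Egfl7 (chromosome 2, 26580014 to 26593120), a secreted matrix protein of endothelium, was at 16.9, 15.1 and 18.3 (16.8 ± 1.62). Its exons share 264 bases with Gm20532, a protein-coding gene on the same strand that is not among the listed genes. They also share 73 bases with Mir126a and 64 bases with Agpat2 on the opposite strand, a gene at a mean of 16.3. Whether the counting used strand is not given in the sources used here. Nos3, the endothelial nitric oxide synthase, was weak at 6.90, 5.71 and 8.27, and 1040 of its 4132 exon bases overlap the antisense gene Gm15587.

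Across the transcription factors the order of the libraries was mixed. Ets1 (chromosome 9, 32636221 to 32757820), an ETS factor also made in lymphocytes and mesenchyme, was at 69.2, 73.0 and 79.4 (73.9 ± 5.19). Fli1 (chromosome 9, 32422204 to 32542861), an ETS factor of endothelium and blood cells, was at 40.4, 49.7 and 45.6 (45.2 ± 4.66). Erg (chromosome 16, 95359169 to 95586593), the ETS factor most restricted to endothelium, was at 28.2, 22.1 and 26.3 (25.5 ± 3.12). Each of the 3 was highest in a different library: Ets1 in DKO 3, Fli1 in DKO 2 and Erg in DKO 1. Their folds in DKO 3 were 1.12, 1.01 and 1.04, below the class median. Per kilobase, Erg was lower than Fli1 in every library, by a mean log2 difference of -0.74 ± 0.29.

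The other endothelial factors were weak. Sox7, a SOX factor of vessel specification, was at 6.001, 5.769 and 7.13, Gata2 at 4.25, 4.20 and 3.75, and Tal1, a partner of GATA factors in blood and endothelium, at 2.53, 3.19 and 3.33. Prox1, the master factor of lymphatic endothelium, was at 0.583, 0.962 and 0.955, values that correspond to 20, 35 and 41 reads if the smallest value is 1 read. For each of these 4 genes the counting intervals overlapped between all libraries. Overlap of intervals is not a test of a difference, so it does not show that the libraries were equal. Gata2 was the only identity gene lowest in DKO 3.

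**Figure D2:**
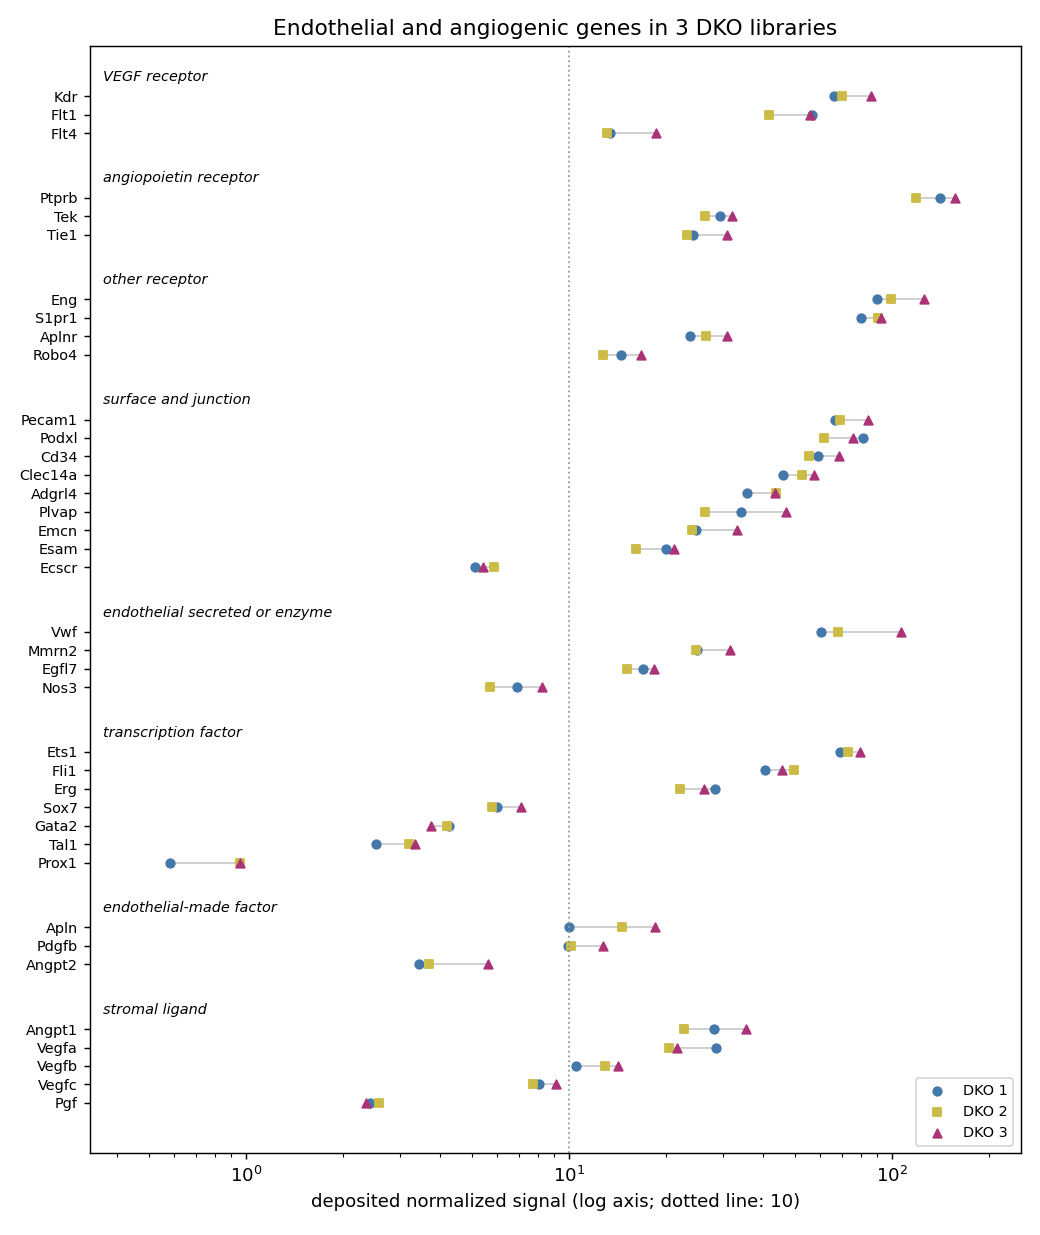
Deposited normalized signal (log axis) of all 38 members by role, with 1 marker per library. Triangles for DKO 3 are the rightmost for 28 members, and Nos3, Ecscr, Sox7, Gata2, Tal1, Prox1, Angpt2, Vegfc and Pgf lie left of the dotted line at 10.

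Promoter sequence was compared for members that did and did not stand out in DKO 3, since ETS factors bind GGAA cores in many endothelial promoters. The stretches shown cover the bases from 150 to 31 before the RefSeq start of each gene (GRCm38.p6), 5′ to 3′ on the gene's strand, with matches to AGGAAG or its reverse complement CTTCCT in capitals. Kdr lies on the minus strand at chr5:75978486-75978605, Eng on the plus strand at chr2:32646445-32646564, Emcn on the plus strand at chr3:137340928-137341047, and Flt1 on the minus strand at chr5:147726042-147726161.
Kdr: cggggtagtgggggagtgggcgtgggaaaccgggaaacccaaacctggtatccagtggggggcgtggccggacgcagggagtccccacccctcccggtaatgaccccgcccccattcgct
Eng: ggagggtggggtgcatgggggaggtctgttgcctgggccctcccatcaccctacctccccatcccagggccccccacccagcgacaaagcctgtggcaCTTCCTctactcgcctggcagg
Emcn: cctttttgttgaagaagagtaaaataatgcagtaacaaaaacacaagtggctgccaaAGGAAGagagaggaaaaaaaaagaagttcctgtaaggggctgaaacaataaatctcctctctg
Flt1: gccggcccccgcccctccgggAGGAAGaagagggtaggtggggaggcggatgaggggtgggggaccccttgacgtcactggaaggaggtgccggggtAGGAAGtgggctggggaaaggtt

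AGGAAG matches were present in Eng and Emcn, which were highest in DKO 3, but also, at 2 positions, in Flt1, which was not. No AGGAAG match was found in this stretch of Kdr, which was highest in DKO 3. The shorter GGAA core was not marked, and it does occur in the Kdr stretch. Promoter entries of 300 bases existed for 21 member genes, 30 entries in all. AGGAAG occurred on either strand in 11 of these 30, 36.7%, against 35.4% of 32851 promoter entries. AGATAA, bound by factors such as GATA2, occurred in 4 of 30, against 11.2% of all entries. ACGTG, the core of the hypoxia response element, occurred in 4 of 30, against 19.6%. Vegfa, a textbook hypoxia target, held both of the latter. These shares lie near the background and are letter matches only.

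The 3 factors made by endothelium were each highest in DKO 3, with counting intervals apart from both other libraries. Over all genes with a mean of at least 10, 34.6% were highest in DKO 3 and 11.6% were so with intervals apart. Of the 3 factors, only Apln and Pdgfb passed that limit. Apln (chromosome X, 48025146 to 48034853), the apelin peptide made by sprouting tip cells, was at 9.99, 14.6 and 18.5 (14.4 ± 4.27), and all 3 libraries had intervals apart. Angpt2 (chromosome 8, 18690263 to 18741562), the destabilising angiopoietin, was below the level limit at 3.44, 3.68 and 5.61 (4.24 ± 1.19). Pdgfb (chromosome 15, 79995874 to 80014977), which draws pericytes to new vessels, was at 9.96, 10.1 and 12.7 (10.9 ± 1.55). Folds in DKO 3 over the mean of the others were 1.47, 1.45 and 1.24. Per kilobase, Aplnr exceeded its ligand Apln in every library, with a log2 difference that was 0.83 in DKO 1, 0.54 in DKO 2 and 0.45 in DKO 3.

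The stromal ligands did not share an order. Of the 3 above the level limit, 2 were highest in DKO 3, against 34.6% of all genes. The median deviations of these 3 genes were -0.01, -0.18 and 0.17 in DKO 1, 2 and 3. The DKO 3 value was thus close to that of the identity and receptor genes, 0.18. Vegfa (chromosome 17, 46016993 to 46032369), the main VEGF, was at 28.5, 20.4 and 21.5 (23.5 ± 4.40). It was thus highest in DKO 1, 1.34-fold over the mean of the others with intervals apart, and low in DKO 3, where its receptor Kdr was highest. Angpt1 (chromosome 15, 42424723 to 42676977) was at 28.0, 22.7 and 35.4 (28.7 ± 6.37), with all 3 libraries apart and 1.38-fold in DKO 3. Angpt1 shares 737 exon bases with the antisense gene Gm17473, which was itself at 0.211. Vegfb (chromosome 19, 6982473 to 6987651), a ligand of FLT1, was at 10.5, 12.9 and 14.1 (12.5 ± 1.85), lowest in DKO 1. Vegfc (chromosome 8, 54077606 to 54187096), the lymphatic growth factor, was at 8.07, 7.72 and 9.08 (8.29 ± 0.709), and Pgf, placental growth factor, at 2.42, 2.58 and 2.35 (2.45 ± 0.118). For Pgf the counting intervals overlapped between all libraries.

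Per kilobase, the ligands of VEGF receptors were ordered Vegfb, Vegfa, Vegfc and Pgf, and the order of the first pair was not stable. Vegfb stood at 7.81 ± 1.15, Vegfa at 5.48 ± 1.03, Vegfc at 3.39 ± 0.290 and Pgf at 0.844 ± 0.0408 per kilobase. Vegfa lay below Vegfb in DKO 2 and DKO 3, by log2 differences of -0.65 and -0.70, but not in DKO 1, at 0.02 (mean -0.45 ± 0.40, exact permutation p = 0.5, adjusted 0.556). Before division by length Vegfa was higher, with a log2 difference of 0.85. Vegfa exceeded Vegfc by 0.55 ± 0.25 and Pgf by 1.80 ± 0.23. Angpt1, at 5.51 ± 1.22 per kilobase, exceeded Angpt2, at 1.15 ± 0.323, by 1.59 ± 0.15, in each case in 3 of 3 libraries. Angpt1 and Vegfa could not be ordered, with log2 differences of Vegfa from Angpt1 of 0.26, 0.10 and -0.37.

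**Figure D3:**
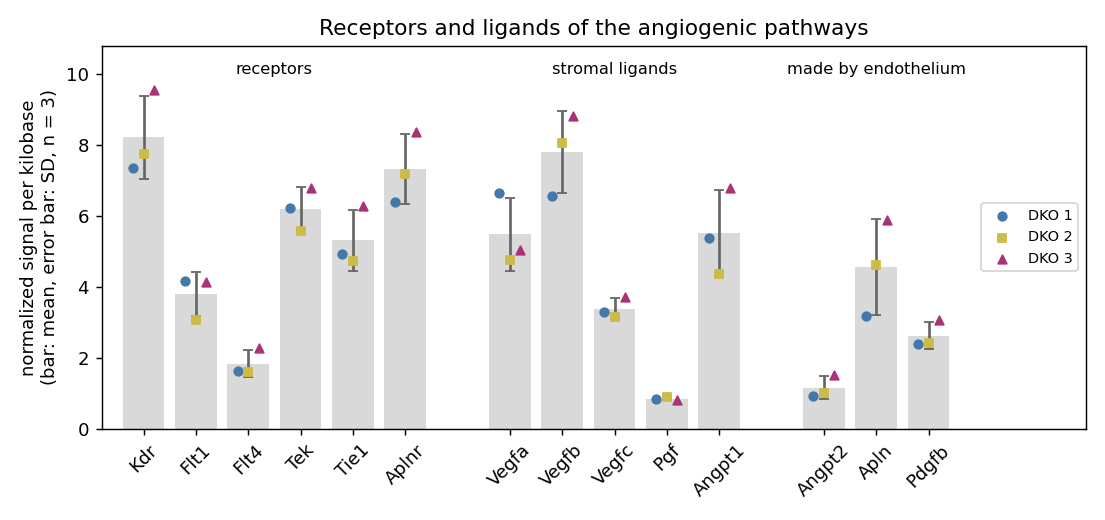
Normalized signal per kilobase of exon for 6 receptors of VEGF, angiopoietin and apelin signalling, the stromal ligands and the endothelium-made factors, with bars for the mean, error bars for the SD (n = 3) and 1 marker per library. Among the 14 genes drawn, which leave out S1pr1, Eng and Ptprb, Kdr, Vegfb and Aplnr have the tallest bars, Pgf and Angpt2 the lowest, and Vegfa is the only ligand shown whose DKO 1 marker stands clearly above the other libraries.

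Endothelial genes outside the 38 were also mostly highest in DKO 3. The lists used here were chosen with earlier results of these data known, so they are not independent support. Of 15 further endothelial markers, 8 had a mean of at least 10. Of these, 7 were highest in DKO 3, against 34.6% of all genes, a share that also stands beside the counts below. Their median deviations were -0.08, -0.11 and 0.22 in DKO 1, 2 and 3. Stab1, a scavenger receptor that macrophages share, stood at 162.3, 244.2 and 295.0, Cd93 at 113.7, 136.7 and 151.8, and Cdh5, the endothelial cadherin, at 76.0, 81.2 and 107.5. Co-receptors and ligand-processing genes were highest in DKO 3 for 8 of the 8 above the limit, among them the basement membrane proteoglycan Hspg2 at 403.5, 377.5 and 520.1, the syndecan Sdc1 at 343.0, 415.3 and 482.2 and the semaphorin receptor Plxnd1 at 294.9, 278.4 and 334.5. Of the other angiogenic ligands, 9 of 14 were highest in DKO 3, led by the angiogenesis inhibitor Thbs1 at 318.0, 322.6 and 560.5 and the chemokine Cxcl12 at 262.0, 376.8 and 401.6, while Pdgfd, at 209.8, 211.0 and 189.4, was not.

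Subtype markers gave a mixed pattern. The shares over all genes were 31.2% highest in DKO 1, 34.2% in DKO 2 and 34.6% in DKO 3. Arterial genes were highest in DKO 3 for 5 of 7, with median deviations of -0.05, -0.08 and 0.07, but the most abundant of them, the Notch target Hey1 (235.4, 255.9 and 246.5) and the ephrin Efnb2 (70.3, 80.6 and 68.7), were highest in DKO 2. Venous genes were highest in DKO 3 for 2 of 4, with Ephb4, the receptor for EFNB2, at 136.6, 132.8 and 154.6. Vcam1, the next most abundant at 116.5, 111.7 and 111.1, was highest in DKO 1 and lowest in DKO 3. Tip cell and Notch genes were highest in DKO 3 for 4 of 7, among them the netrin receptor Unc5b at 290.7, 254.8 and 299.7, while the more abundant matrix protein Nid2, at 307.3, 283.8 and 289.8, was highest in DKO 1. Of the capillary genes only Kit, at 117.2, 71.2 and 85.2, and Cd36, a fatty acid transporter, at 15.5, 16.3 and 16.4, passed the limit. Lymphatic markers were mixed. Nrp2, a co-receptor for VEGFC that is also in the venous and co-receptor lists and the most abundant of the 3 above the limit, was highest in DKO 3 at 91.8, 104.5 and 114.1, whereas Lyve1 (35.8, 34.1 and 28.8) and Pdpn (33.9, 28.4 and 27.6) were lowest there. Macrophages also make Lyve1 and odontogenic cells make Pdpn, and Ccl21a, a defining lymphatic chemokine, was at 0.0291, 0.0479 and 0.0255. Hypoxia genes moved in different directions, with median deviations of -0.03, 0.00 and 0.01 over 11 genes, of which 4 were highest in DKO 1, 2 in DKO 2 and 5 in DKO 3. The factors Epas1 (225.4, 199.7 and 228.9) and Hif1a (199.8, 205.3 and 208.8) differed little, while Ndrg1, a stress-induced gene, was at 66.6, 37.8 and 50.7 and the glucose transporter Slc2a1 at 13.4, 17.6 and 20.8.

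Markers of other cell types also differed between the libraries. Over all genes, 34.6% were highest in DKO 3 and 34.2% in DKO 2. Macrophage markers, all 10 of which passed the limit, were highest in DKO 3 for 7 and lowest in DKO 1 for 9 (38.1% of all genes were lowest there), with summed signal of 995, 1296 and 1376 and median deviations of -0.23, 0.05 and 0.20. The median deviation of macrophage markers in DKO 3 was thus as large as that of the 24 endothelial genes, 0.18. Mural genes, which mark pericytes and smooth muscle, were highest in DKO 3 for 5 of 9 and in DKO 2 for 3. Their sums were 958, 951 and 1077, with Rgs5 a large part of them at 515.1, 476.9 and 570.5. The 3 that were highest in DKO 2 were the smooth muscle genes Acta2 (36.0, 57.3 and 43.0), Myh11 (25.8, 32.9 and 23.4) and Tagln (15.4, 25.7 and 19.5). Dental epithelium genes were highest in DKO 2 for 7 of 8, with sums of 798, 1271 and 964. Dental mesenchyme genes, which the tissue label calls for, were abundant, with sums of 15101, 10293 and 19302. Col1a1, the type I collagen chain of odontoblasts and fibroblasts, was the most abundant of them at 9950, 4719 and 13715, highest in DKO 3 by 1.87-fold and lowest in DKO 2, while Tnc stood at 1610, 1715 and 1774 and Vcan at 1512, 1762 and 1747. Of the 9 mesenchyme genes 4 were highest in DKO 3, and their median deviations were -0.08, 0.02 and 0.06. Of the mast cell genes other than Kit, none reached a mean of 1, and globin sums stayed small, with Hba-a2 at 7.77, 12.4 and 13.8. The part of these cell types in the endothelial result was not tested.

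**Figure D4:**
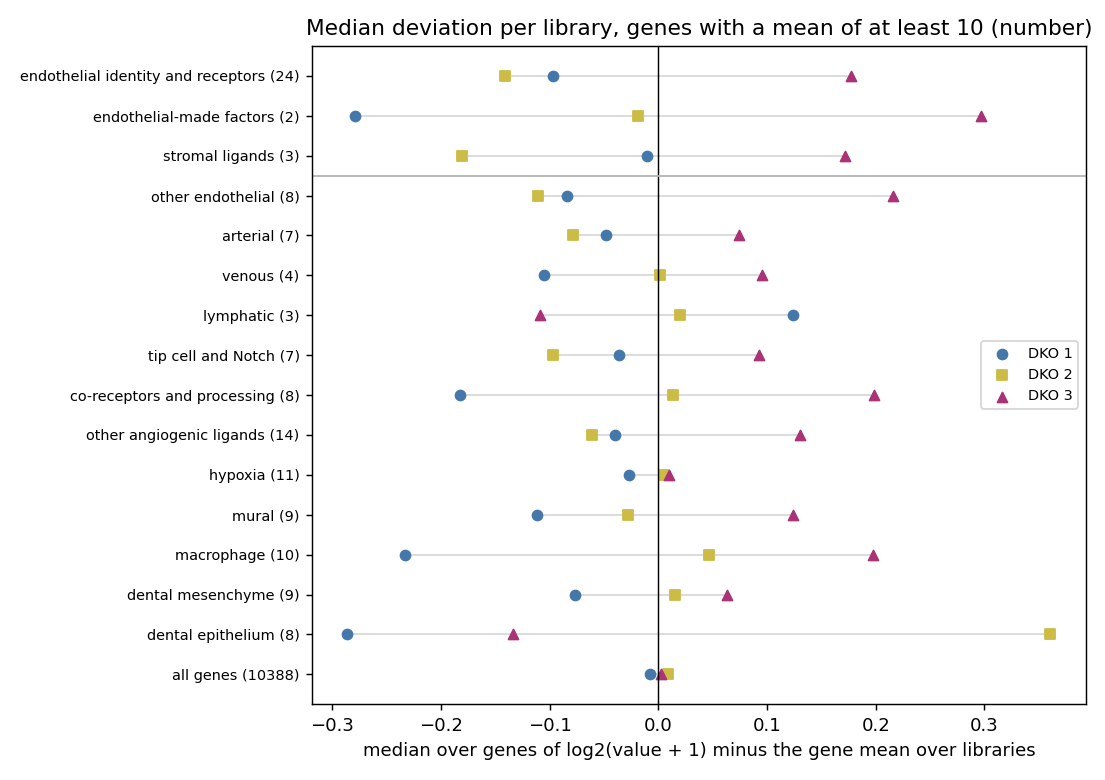
Median over genes of log2(value + 1) minus the gene's mean over libraries, for the 3 member classes (above the line) and for the other lists with at least 3 genes at a mean of at least 10 (numbers in brackets). The identity and receptor genes, stromal ligands, other endothelial genes, co-receptors and macrophage markers have DKO 3 near 0.2. Endothelium-made factors, with 2 genes, have DKO 3 at 0.30. Lymphatic genes have DKO 3 lowest, dental epithelium has DKO 2 highest, and all genes lie near 0.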

How the data were processed

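The deposited table gives normalized gene-level signal for 3 DKO libraries, made by the authors from reads aligned with TopHat2 2.0.8 to mm10, per the submitters' processing notes. The counter, annotation, strand setting and low-value filters were not given in the sources used here. The deposited signal has the same 75th percentile, 44.7, in each library. Columns were matched to libraries by library number. The authors' values are not whole reads throughout, so no count model was used. Members were taken by symbol. The members, the gene lists, the pairs and the naming rule (all members, and the 3 highest of each other list) were chosen with earlier results of these data known. Genes outside that rule (Acta2, Myh11, Tagln, Ccl21a, Ndrg1, Slc2a1, Agpat2, Gm15587, Gm17473, Gm20532 and Mir126a) were chosen after their values or positions were seen. Logarithms used a pseudocount of 1, and fold changes on value + 1 understate low genes. Exon length (the union of GENCODE M21 exons) came from matching symbol, chromosome and start, for 18861 genes and all 38 members. The deposited ends lie 1 base past GENCODE's, which are printed. Promoters are from RefSeq, GRCm38.p6. Python 3.11.15, pandas 2.3.3, numpy 2.4.6, scipy 1.17.1 and matplotlib 3.10.9 were used.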

Additional observations from a re-analysis of the deposited data

How the results depend on the processing

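The alternatives were planned, except a pseudocount of 0.1, chosen after seeing the data, which kept the direction of all 10 pairs. Means of the 38 members moved by less than 1 SD with equal library totals. The deposited totals were already close, at 986401, 958773 and 966163 in DKO 1, 2 and 3, so this setting could hardly move the means. Leaving out each library gave ranges of the class median deviation from 0.0322 (without DKO 3) to 0.30 for identity and receptor genes, from 0.26 to 0.58 for endothelium-made factors and from 0.12 (without DKO 1) to 0.33 for stromal ligands. It gave 3 to 14 identity and receptor genes highest in DKO 1 and 2 to 10 in DKO 2 (the upper counts without DKO 3), and 1 to 2 and 0 to 3 of the factors and ligands. Counts of genes more than 25% above or 20% below the mean of the others then were 4 to 9, 4 to 11 and 9 to 11 identity and receptor genes in DKO 1, 2 and 3, and 2 to 5, 2 and 2 to 5 factors and ligands. With a pseudocount of 10, 2 identity and receptor genes passed those limits in DKO 2, 4 in DKO 3 and 1 factor or ligand in DKO 1. With no filter on low values, 4 identity and receptor genes and 1 factor or ligand were highest in DKO 2. With a mean of at least 20, 1 factor or ligand was highest in DKO 3 and 1 each passed those limits in DKO 1 and DKO 3, as fewer genes were left, and the median deviation of endothelium-made factors had no genes. With equal totals, 2 identity and receptor genes each passed those limits in DKO 1 and DKO 2. The log2 difference of Vegfa from Vegfb was 0.85 without division by length, and that of Vegfa from Angpt1 ran from -0.13 to 0.18 (without DKO 3) with a library left out. The cause was not tested for shifts with no reason given. No paired comparison of groups was possible because there is 1 group. Depth limits statements on Prox1, Gata2, Tal1 and Pgf.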
